A study of Mus musculus with 25 samples.

Results

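The core circadian clock genes are the 10 genes of the feedback loop by which cells keep daily time: the activators Arntl (the gene of BMAL1), Clock and Npas2, and the repressors Per1, Per2, Per3, Cry1, Cry2, Nr1d1 and Nr1d2 (the last pair encode REV-ERB alpha and REV-ERB beta). They were taken by symbol from the 56941 rows of a read count table. All 10 were found, and all 10 were among the 17682 genes left by a filter on low counts. The genes were chosen on their measured levels, which had been seen to move between these groups, so their levels and differences are given as a description, with no p-value for any single one. Counts of genes that pass a test stand beside the share of all genes that pass it, and nothing is read from them. The study looked at lactate use in cardiac hypertrophy, the enlargement of heart muscle. RNA was sequenced from 25 mouse hearts. Hearts labelled WT had no pump (4 hearts), saline (6) or Ang/PE (3), and hearts labelled MCT1KO had no pump (3), saline (4) or Ang/PE (5). Ang/PE is the study's name for neurohormonal agonists given to cause hypertrophy, and MCT1, encoded by Slc16a1, carries lactate across membranes. The labels used here give neither how the knockout was made nor the cells it acts in, and no strain, age, sex, infusion time or hour of collection. Nothing in them says how the hearts of a group relate to each other beyond being separate hearts.

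In this loop, BMAL1 pairs with CLOCK or NPAS2, binds E-box sequences and switches on the Per, Cry and Nr1d genes. PER and CRY proteins then inhibit the activator pair, while the REV-ERB proteins repress Arntl and Npas2 through elements that they share with the ROR activators. Arntl RNA therefore peaks at about the opposite time of day from Nr1d1, Per3 and Dbp, also in the heart, where the clock times metabolism and contraction.

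Promoter sequence was searched for the letters of these elements, in windows of 300 bases (250 before and 50 after a start site) from RefSeq, build GRCm38.p6. The table held 13 windows for 9 of the 10 genes, and Per2 had no entry. The motifs, sought on both strands, were the E-box CACGTG, its variant CACGTT, the ROR and REV-ERB element GTAGGTCA and the D-box TTATGTAA, which DBP, TEF and HLF bind. These 4 motifs were present in 7.15%, 4.68%, 0.621% and 0.938% of all 32851 windows, respectively. Shown are the 4 stretches with a match to the E-box, the D-box or the ROR and REV-ERB element, since these are the elements through which the proteins of the loop act. They read 5′ to 3′ on the gene's strand, with the motif in capitals.
Arntl, chr7:113207529-113207558, plus strand: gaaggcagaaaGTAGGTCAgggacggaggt
Per3, chr4:151044796-151044890, minus strand: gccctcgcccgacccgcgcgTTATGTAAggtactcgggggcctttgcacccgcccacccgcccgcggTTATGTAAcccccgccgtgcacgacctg
Per1, chr11:69098763-69098808, plus strand: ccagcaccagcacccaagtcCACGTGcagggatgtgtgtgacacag
Cry1, chr10:85185089-85185134, minus strand: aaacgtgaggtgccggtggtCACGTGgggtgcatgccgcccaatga

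The Arntl match lies 29 bases after the start site, in 1 of its 2 windows. Per3 has a pair of D-box matches, 205 and 158 bases before its start site. The Per1 E-box lies 166 bases before the start site in 1 of its 2 windows, and the Cry1 E-box 60 bases before, with CACGTT on the opposite strand 79 bases before. CACGTT was also found on the opposite strand in the windows of Cry2 (166 bases before) and Nr1d1 (28 bases before). The windows of Clock, Npas2 and Nr1d2 hold none of these letters. A match is a description of the letters and not evidence of binding.

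Libraries held 12216704 to 24880683 counts, and those of the MCT1KO hearts 12216704 to 16565155 with Ang/PE, 14034354 to 17421963 with saline and 18885925 to 22608625 with no pump. Slc16a1, the gene of the knockout label, was present in all hearts: mean levels were 203, 199 and 214 CPM (counts per 1000000 of the scaled library total) in WT hearts with no pump, saline and Ang/PE, and 199.8, 158 and 189.8 CPM in MCT1KO hearts. Its log2 differences between genotypes were −0.02 (SE 0.15), −0.33 (SE 0.13) and −0.18 (SE 0.15), with edgeR adjusted p = 0.976, 0.219 and 0.807. The counts thus do not bear out the label, and the genotype is given as labelled throughout. Ventricular muscle markers (5 of 5) were abundant in every heart. Their mean log2 CPM was lowest in MCT1KO saline 4, at 10.9, against 12.06 to 12.53 in the other hearts. In the 10 saline hearts the atrial light chain Myl7 reached 1357 CPM, against 0.785 CPM at most in the 15 other hearts, and the brown fat gene Ucp1 reached 551 CPM in MCT1KO saline 4. The summed level of the 4 atrial markers ranged from 64.0 to 7385 CPM in MCT1KO saline hearts, 316 to 5149 CPM in MCT1KO Ang/PE hearts and 21.96 to 463 CPM in MCT1KO no pump hearts. Outside the saline hearts nearly all of that sum was Nppa, and Myl7 and Sln were at or near 0. The 5 fat markers summed to 12.1 to 1459 CPM, 12.7 to 15.99 CPM and 11.8 to 18.3 CPM in the same groups. Xist, a gene of female cells, was high in 2 of 4, 1 of 6 and 3 of 3 WT hearts and in 0 of 3, 3 of 4 and 4 of 5 MCT1KO hearts with no pump, saline and Ang/PE.

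In the hearts labelled MCT1KO, the activators stood higher and 6 of the 7 repressors lower under Ang/PE than with saline. Arntl was 3.40-fold higher and Npas2 1.87-fold higher. Per3 was 3.18-fold lower, Per2 2.09-fold lower, Nr1d2 1.68-fold lower, Nr1d1 1.59-fold lower and Cry2 1.54-fold lower. By edgeR's quasi-likelihood test with Benjamini-Hochberg adjustment over all 17682 genes, 7 of the 10 genes passed an adjusted p of 0.05, 3 higher and 4 lower. That rule called 4.46% of all genes in this comparison, and 8 of the 10 had an unadjusted p below 0.05, beside 20.4% of all genes. The median log2 difference of the 10 genes was −0.47, beside −0.01 over all genes tested. In bulk RNA, fewer cells of a type and less RNA per cell cannot be told apart.

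**Figure D1:**
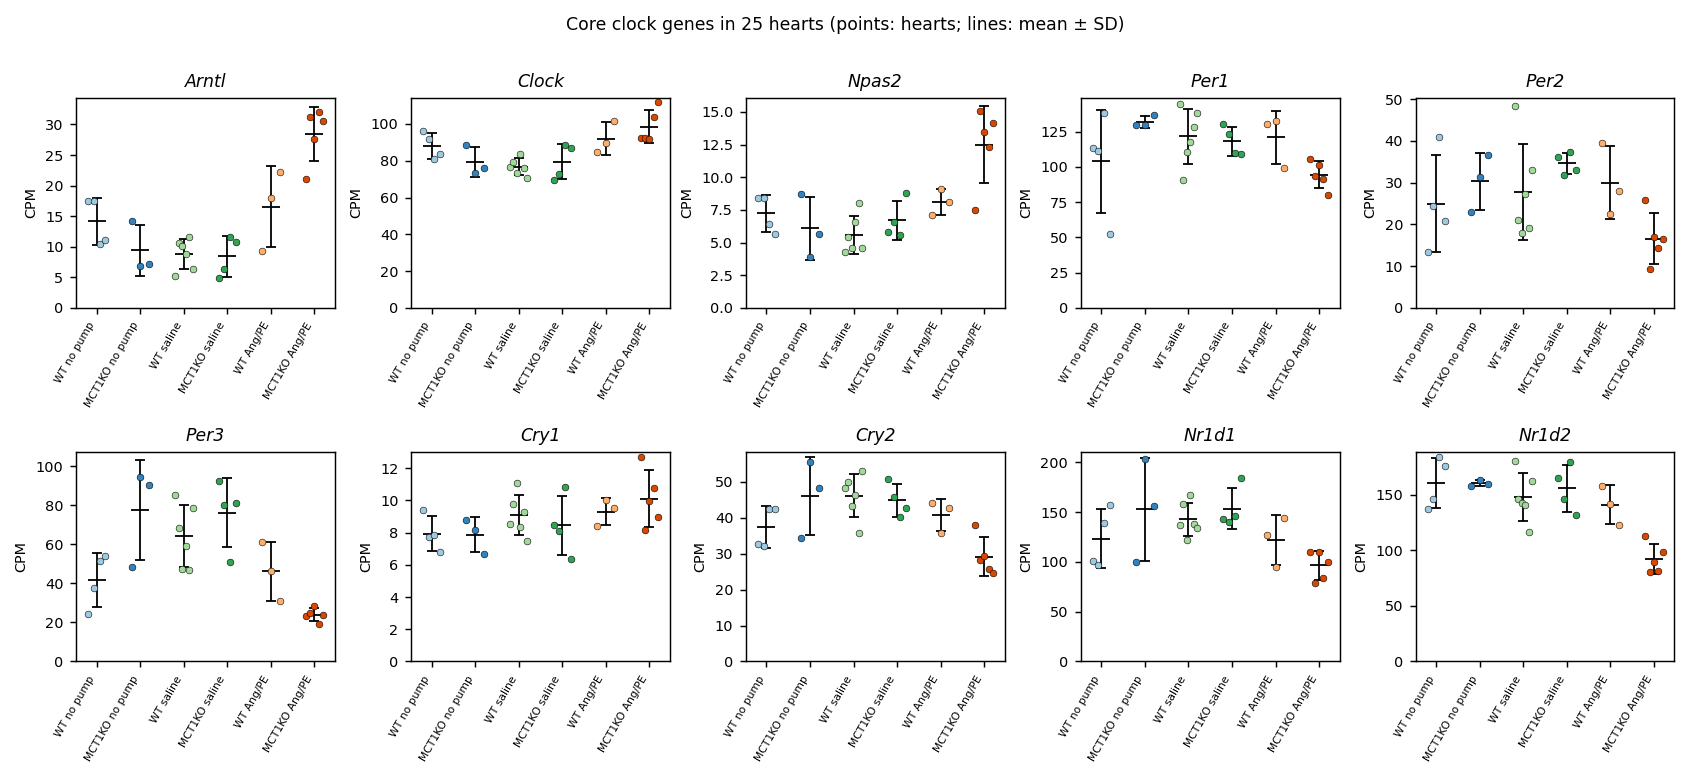
Level of each of the 10 clock genes (CPM, linear axes from 0) in each of the 25 hearts, by group, with 1 point per heart and lines for the group mean ± SD. By group mean, Arntl, Clock and Npas2 are highest, and Per1, Per2, Per3, Cry2, Nr1d1 and Nr1d2 lowest, in the MCT1KO Ang/PE hearts. Cry1 means run from 7.86 CPM in MCT1KO no pump to 10.1 CPM in MCT1KO Ang/PE hearts.

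Arntl encodes BMAL1, the partner without which neither CLOCK nor NPAS2 drives the loop. Its level was 17.5, 17.5, 10.5 and 11.2 CPM in the 4 WT no pump hearts and 14.2, 6.85 and 7.11 CPM in the 3 MCT1KO no pump hearts. With saline it was 4.86, 6.35, 11.6 and 10.9 CPM in MCT1KO hearts, with a lowest level of 5.17, a median of 9.49 and a highest level of 11.6 CPM over the 6 WT saline hearts. With Ang/PE the levels were 9.36, 18.03 and 22.3 CPM in WT hearts and 21.1, 31.2, 27.5, 32.0 and 30.6 CPM in MCT1KO hearts. Every MCT1KO Ang/PE heart thus lay above every MCT1KO saline and no pump heart, but WT Ang/PE 3 lay above the lowest of them. The log2 difference between Ang/PE and saline was 1.76 (SE 0.31) in MCT1KO hearts, with a 95% interval of 1.12 to 2.40, and 0.91 (SE 0.31) in WT hearts, with an interval of 0.27 to 1.55. Against the MCT1KO no pump hearts, whose atrial and fat markers are low, it was 1.599 (SE 0.34).

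Npas2 encodes the alternative partner of BMAL1. Averaged over all hearts it was the lowest of the 10 genes per length of transcript, with a count of 67 in its lowest library. It stood at 8.44, 8.43, 6.39 and 5.68 CPM in WT and 8.69, 3.92 and 5.68 CPM in MCT1KO hearts with no pump, and at 5.81, 6.61, 5.56 and 8.79 CPM in MCT1KO saline hearts, with a lowest level of 4.30, a median of 5.00 and a highest level of 8.06 CPM over the 6 WT saline hearts. The Ang/PE values were 7.10, 9.08 and 8.08 CPM in WT and 7.497, 15.1, 13.5, 12.3 and 14.2 CPM in MCT1KO hearts. The 4 MCT1KO Ang/PE hearts other than replicate 1 were above all 20 other hearts, and replicate 1 lay among them. The log2 difference to saline was 0.91 (SE 0.23) in MCT1KO and 0.53 (SE 0.24) in WT hearts, and that to no pump in MCT1KO hearts was 1.04 (SE 0.25).

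Clock, the usual partner of BMAL1, whose RNA cycles little in most tissues, had the smallest differences among the activators. It was at 96.2, 91.6, 80.9 and 83.6 CPM in WT and 88.8, 73.4 and 75.8 CPM in MCT1KO hearts with no pump. With saline it was at 69.6, 73.0, 88.5 and 86.8 CPM in MCT1KO hearts, with a lowest level of 70.8, a median of 76.4 and a highest level of 83.7 CPM over the 6 WT saline hearts, and under Ang/PE at 84.8, 89.7 and 102 CPM in WT and 92.6, 92.4, 91.9, 104 and 112 CPM in MCT1KO hearts. The Ang/PE hearts of each genotype lay above its saline hearts without overlap. They lay above the no pump hearts without overlap in MCT1KO but not in WT hearts. The log2 difference to saline was 0.31 (SE 0.09) in MCT1KO and 0.26 (SE 0.09) in WT hearts.

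Among the Period genes, whose proteins inhibit the BMAL1 complexes, Per3 differed most. Its level was 24.4, 37.5, 51.6 and 54.2 CPM in WT and 48.2, 94.5 and 90.4 CPM in MCT1KO hearts with no pump. With saline it was 92.6, 80.4, 50.9 and 81.0 CPM in MCT1KO hearts, with a lowest level of 47.0, a median of 63.8 and a highest level of 85.4 CPM over the 6 WT saline hearts. Under Ang/PE it was 61.4, 46.1 and 30.9 CPM in WT and 23.3, 25.0, 28.2, 19.3 and 23.95 CPM in MCT1KO hearts. All 5 MCT1KO Ang/PE hearts were below every WT Ang/PE heart and every saline heart, and WT no pump 1 alone among the 20 other hearts fell within their range. The log2 difference between Ang/PE and saline was −1.67 (SE 0.26) in MCT1KO hearts, with a 95% interval of −2.21 to −1.14, and −0.48 (SE 0.27) in WT hearts, with an interval of −1.04 to 0.09. It was −1.70 (SE 0.27) against the MCT1KO no pump hearts.

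Per2, a Period gene whose loss disrupts daily rhythms in mice, varied more within groups. It was at 13.5, 24.4, 41.1 and 20.9 CPM in WT and 23.01, 31.3 and 36.6 CPM in MCT1KO hearts with no pump, and at 36.2, 31.9, 37.4 and 33.1 CPM in MCT1KO saline hearts, with a lowest level of 18.03, a median of 24.2 and a highest level of 48.4 CPM over the 6 WT saline hearts. With Ang/PE the levels were 39.5, 22.5 and 27.9 CPM in WT and 25.9, 9.29, 17.04, 14.4 and 16.6 CPM in MCT1KO hearts. The MCT1KO Ang/PE hearts were below the MCT1KO saline hearts without overlap and overlapped the WT Ang/PE hearts. The log2 difference to saline was −1.07 (SE 0.32) in MCT1KO hearts. In WT hearts it was 0.11 (SE 0.33).

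Per1, which glucocorticoids and cyclic AMP switch on directly, ranged over 52.7 to 138 CPM in WT and 129 to 137 CPM in MCT1KO hearts with no pump. Its range was 90.8 to 144 CPM in WT and 109 to 130.4 CPM in MCT1KO saline hearts, and 99.5 to 133 CPM in WT and 80.4 to 105 CPM in MCT1KO Ang/PE hearts. MCT1KO Ang/PE hearts lay below MCT1KO saline hearts without overlap, by −0.32 (SE 0.18) on the log2 scale, but WT no pump 4, at 52.7 CPM, was the lowest of the 25 hearts. Over 25 hearts, in deviations from the group means, Per1 had r = 0.63 (Spearman's rho 0.38) with the glucocorticoid-induced gene Tsc22d3, and r = 0.33 without the 2 hearts farthest from the median. The other 3 glucocorticoid-response genes had r of 0.25 (Fkbp5), 0.32 (Sgk1) and 0.07 (Zbtb16) with Per1. The relation to Tsc22d3 thus rests largely on 2 hearts.

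The Cryptochromes, the stronger inhibitors of the activator complex, differed from each other. Cry2 stood at 32.7, 32.1, 42.5 and 42.5 CPM in WT and 34.4, 55.5 and 48.4 CPM in MCT1KO hearts with no pump, and at 50.8, 45.9, 40.2 and 42.8 CPM in MCT1KO saline hearts, with a lowest level of 35.9, a median of 47.3 and a highest level of 53.1 CPM over the 6 WT saline hearts. Under Ang/PE it stood at 44.1, 35.6 and 42.7 CPM in WT and 38.1, 28.1, 29.4, 25.8 and 24.6 CPM in MCT1KO hearts. The MCT1KO Ang/PE hearts were all below the MCT1KO saline hearts, with a log2 difference of −0.62 (SE 0.14), but replicate 1 overlapped the no pump hearts of both genotypes. In WT hearts the difference to saline was −0.18 (SE 0.15).

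Cry1, whose RNA peaks later in the cycle than that of the Per genes, differed by 0.26 (SE 0.15) between Ang/PE and saline in MCT1KO hearts and by 0.03 (SE 0.16) in WT hearts. Its groups overlapped in both comparisons: it ranged over 8.17 to 12.7 CPM in MCT1KO Ang/PE hearts, 6.37 to 10.8 CPM in MCT1KO saline hearts and 6.66 to 8.78 CPM in MCT1KO no pump hearts. WT hearts ranged over 6.81 to 9.39, 7.497 to 11.1 and 8.41 to 9.99 CPM with no pump, saline and Ang/PE. Cry1 was the only one of the 7 repressors with a higher mean under Ang/PE than with saline in MCT1KO hearts, but with the atrial and fat marker scores as covariates its difference was −0.10.

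Nr1d1 and Nr1d2 encode the REV-ERB receptors, which bind haem and repress Arntl. Nr1d2 was at 137, 146, 184 and 176 CPM in WT and 158, 164 and 159.9 CPM in MCT1KO hearts with no pump. It was at 165, 146, 180.0 and 132 CPM in MCT1KO saline hearts, with a lowest level of 117, a median of 144 and a highest level of 180.3 CPM over the 6 WT saline hearts. Under Ang/PE it was at 159, 142 and 123 CPM in WT and 113, 80.6, 89.8, 81.4 and 98.2 CPM in MCT1KO hearts. All 5 MCT1KO Ang/PE hearts were below the other 20 hearts, with 113 CPM as their highest and 117 CPM as the lowest of the others. The log2 difference between Ang/PE and saline was −0.75 (SE 0.12) in MCT1KO and −0.07 (SE 0.13) in WT hearts, and −0.80 (SE 0.13) against no pump in MCT1KO hearts.

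Nr1d1, the most abundant of the 10 genes per length, was at 101, 97.3, 139 and 157 CPM in WT and 99.6, 203 and 156 CPM in MCT1KO hearts with no pump. With saline it was at 143, 139.8, 146 and 184 CPM in MCT1KO hearts, with a lowest level of 122, a median of 138 and a highest level of 167 CPM over the 6 WT saline hearts. The Ang/PE values were 127, 94.6 and 144 CPM in WT and 109.8, 79.1, 109.6, 84.3 and 99.8 CPM in MCT1KO hearts. The MCT1KO Ang/PE hearts did not overlap the saline hearts of either genotype but overlapped the no pump hearts of both. The log2 difference to saline was −0.67 (SE 0.17) in MCT1KO and −0.23 (SE 0.19) in WT hearts. Exons of Nr1d1 share 263 bases (8.55% of its exon bases) with Thra, a thyroid hormone receptor gene on the opposite strand in the annotation used here, and the strand setting of the counting is not given in the sources used here. Thra itself differed by −0.01 (SE 0.10) between Ang/PE and saline in MCT1KO hearts, and had r = 0.27 with Nr1d1 over the 25 hearts. The other overlaps of exons on opposite strands were 295 bases for Cry2 (4.67% of its exon bases) and 33 bases for Arntl (0.439%).

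For 8 of the 10 genes, MCT1KO Ang/PE and MCT1KO saline hearts did not overlap, 2 higher (Arntl and Clock) and 6 lower (Per1, Per2, Per3, Cry2, Nr1d1 and Nr1d2). Groups did not overlap for 5.42% of all genes. The atrial and fat markers and the depth of sequencing also differed between these groups. Against MCT1KO no pump hearts, in which Myl7 and Ucp1 were at or near 0 as in the Ang/PE hearts, 4 of the 10 genes passed the test. Of these, 1 was higher and 3 lower, beside 0.503% of all genes called. All 10 had an unadjusted p below 0.05, beside 13.1%. The groups did not overlap for 5 of the 10, beside 8.45% of all genes. Differences from no pump were about as large as those from saline, with a median of −0.57 and a range of −1.70 to 1.599. Both comparisons use the same 5 Ang/PE hearts and are not independent. The groups of the no pump comparison also differed in Xist and in depth of sequencing. Xist was high in 0 of 3 MCT1KO no pump hearts and in 4 of 5 MCT1KO Ang/PE hearts. Library totals did not overlap, at 18885925 to 22608625 counts with no pump and 12216704 to 16565155 with Ang/PE. Without MCT1KO saline 4, 3 genes were called against saline (39 of all 17547 genes tested), and without MCT1KO Ang/PE 5, 4 were (404 of 17648). Against no pump, 0 were called without MCT1KO no pump 2 (1 of all 18101 genes). Without MCT1KO no pump 3, 2 were called (54 of 18096). Leaving out MCT1KO Ang/PE 2, 4 or 5 also gave 2 (31 of 17640, 82 of 17672 and 33 of 17648). Fits of only the groups compared called 1 of the 10 genes against saline (1 of all 15817) and 2 against no pump (22 of 16049). With counts thinned to the smallest library, 6 genes were called against saline (682 of all 16563) and 4 against no pump (88 of 16563). With both marker scores as covariates, 0 of the 10 genes were called against saline, as were 0 of all 17682 genes. Arntl then stood at 1.70 and Per3 at −1.39 on the log2 scale. The same covariates left 4 called against no pump (129 of all 17682). With Xist as a covariate 7 were called against saline (633 of all 17682) and 2 against no pump (11 of 17682).

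**Figure D2:**
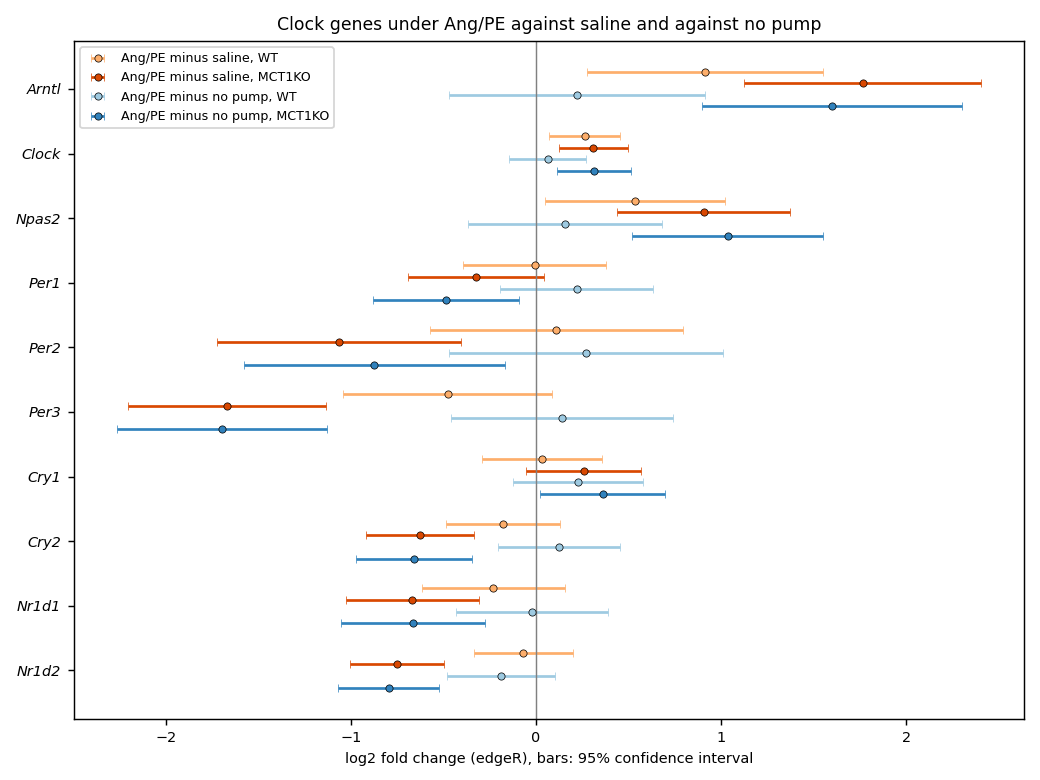
Log2 difference of each clock gene between Ang/PE and saline and between Ang/PE and no pump, in WT and MCT1KO hearts, with 95% intervals from the edgeR model. In MCT1KO hearts the points run from 1.76 for Arntl to −1.67 for Per3 against saline, and in WT hearts from 0.91 for Arntl to −0.48 for Per3.

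In WT hearts, 0 of the 10 genes were called by edgeR between Ang/PE and saline (0.017% of all genes), and 3 had an unadjusted p below 0.05, all higher (19.1% of all genes). DESeq2 called 0 as well, beside 644 of all 17682 genes. The groups did not overlap for Clock alone, beside 13.6% of all genes. Arntl differed by 0.91, Npas2 by 0.53 and Clock by 0.26 on the log2 scale. Between Ang/PE and no pump in WT hearts edgeR and DESeq2 called 0 (0% of all genes by edgeR, 25 of 17682 by DESeq2). An unadjusted p below 0.05 was reached by 0 genes, beside 9.02% of all genes. The groups overlapped for all 10 genes, while 10.7% of all genes did not. The 3 WT Ang/PE hearts were unlike each other: WT Ang/PE 1 had Arntl at 9.36 CPM and Per3 at 61.4 CPM, and WT Ang/PE 3 had them at 22.3 CPM and 30.9 CPM.

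The difference between the genotypes in the response to Ang/PE was tested as an interaction. It called 0 of the 10 genes by edgeR (0% of all genes) and 0 by DESeq2 (1 of 17682). An unadjusted p below 0.05 was reached by 4 genes, beside 13.5% of all genes. The interaction (the MCT1KO minus the WT response) was negative for Per2 at −1.17 (SE 0.45), Per3 at −1.19 (SE 0.37), Cry2 at −0.45 (SE 0.20) and Nr1d2 at −0.68 (SE 0.18) on the log2 scale. For Arntl the interaction was 0.85 (SE 0.44), with a 95% interval of −0.05 to 1.76. A difference in response between WT and MCT1KO hearts is not shown for any of the 10 genes. The interaction and the comparison of genotypes under Ang/PE use the same Ang/PE hearts as the comparisons above.

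Compared directly under Ang/PE, edgeR called 0 of the 10 genes between MCT1KO and WT hearts (0% of all genes). DESeq2 called 1 (lower), beside 5 of all 17682 genes. By edgeR 6 genes had an unadjusted p below 0.05, beside 6.92% of all genes. Arntl was higher in MCT1KO hearts by 0.79 (SE 0.32) and Npas2 by 0.63 (SE 0.25) on the log2 scale. Per3 stood at −0.95 (SE 0.28), Per2 at −0.86 (SE 0.34), Nr1d2 at −0.61 (SE 0.13) and Cry2 at −0.49 (SE 0.15). The groups did not overlap for Per3 and Nr1d2, beside 5.1% of all genes. With no pump, 0 genes were called by edgeR or DESeq2 (0% of all genes by edgeR, 24 of 17682 by DESeq2). An unadjusted p below 0.05 was reached by 1, beside 12.2% of all genes. Per3 was higher in MCT1KO hearts there, by 0.89 (SE 0.29), the opposite direction to that under Ang/PE. The groups overlapped for all 10 genes, and 11.5% of all genes did not. With saline, 0 genes were called by edgeR or DESeq2 (0% of all genes by edgeR, 146 of 17682 by DESeq2). An unadjusted p below 0.05 was reached by 0, beside 17% of all genes. The groups overlapped for all 10 genes again, and 2.88% of all genes did not.

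Saline against no pump called 0 of the 10 genes in WT hearts by edgeR (6.61% of all genes) and 0 by DESeq2 (1960 of 17682). An unadjusted p below 0.05 was reached by 4 of them, beside 24.3% of all genes. Arntl stood at −0.69 (SE 0.28), Clock at −0.20 (SE 0.08), Per3 at 0.62 (SE 0.25) and Cry2 at 0.30 (SE 0.14). In MCT1KO hearts edgeR and DESeq2 called 0 (0.00566% of all genes by edgeR, 209 of 17682 by DESeq2). There 0 had an unadjusted p below 0.05, beside 12.1%. In both genotypes saline and no pump hearts overlapped for all 10 genes, while 10.3% of all genes in WT and 8.6% in MCT1KO hearts did not. The interaction of genotype with saline against no pump called 0 genes by edgeR (0.00566% of all genes) and 0 by DESeq2 (338 of 17682). In it 0 had an unadjusted p below 0.05, beside 17.2% of all genes.

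The balance of the arms was put into 1 number per heart, the mean log2 CPM of the 3 activators minus that of the 7 repressors. Library scaling shifts both arms nearly alike and so hardly moves it. This index was −0.72, −0.90, −1.74 and −1.41 in the WT and −1.14, −2.39 and −2.09 in the MCT1KO no pump hearts. In the 6 WT saline hearts it ran from −2.47 to −1.32, and in MCT1KO saline hearts it was −2.34, −2.003, −1.70 and −1.49. Under Ang/PE it was −1.71, −0.99 and −0.87 in WT and −0.88, 0.15, −0.27, 0.04 and 0.04 in MCT1KO hearts. In 4 of the 5 MCT1KO Ang/PE hearts the index lay above all 20 other hearts, the highest of which was WT no pump 1 at −0.72. MCT1KO Ang/PE 1 lay among the WT Ang/PE and WT no pump hearts. Group means were −1.19 ± 0.47 (SD, n = 4), −1.86 ± 0.41 (n = 6) and −1.19 ± 0.45 (n = 3) in WT hearts and −1.87 ± 0.65 (n = 3), −1.88 ± 0.37 (n = 4) and −0.18 ± 0.42 (n = 5) in MCT1KO hearts, in the order no pump, saline and Ang/PE. WT Ang/PE and WT no pump hearts thus had the same mean index. The hearts of a group spanned over a unit of log2 within WT no pump, MCT1KO no pump, WT saline and MCT1KO Ang/PE.

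**Figure D3:**
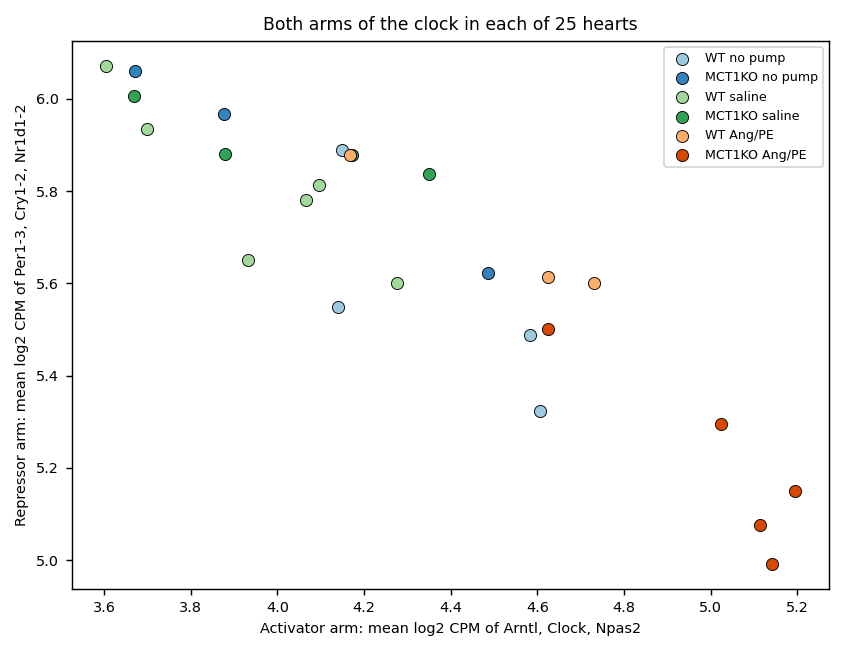
Mean log2 CPM of the 3 activators plotted against that of the 7 repressors, with 1 point per heart and a colour per group. Hearts run from low activators with high repressors (WT saline 1, index −2.47) to high activators with low repressors (MCT1KO Ang/PE 2, index 0.15).

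Hearts of the same group also differed from each other along this balance. Pearson's r was computed over 25 hearts in deviations of log2 CPM from the group means, so that differences between groups play no part, and is given as a description: values of a heart come from 1 library. With Arntl, Clock had r = 0.75 (Spearman's rho 0.77) and Npas2 had r = 0.66 (rho 0.60). Per3 had r = −0.81 (rho −0.80) with Arntl, Cry2 r = −0.74 (rho −0.73), Per2 r = −0.66 (rho −0.61) and Nr1d2 r = −0.64 (rho −0.63). Nr1d1, Per1 and Cry1 were less tied to Arntl, at −0.34, −0.27 and 0.28. Without the 2 hearts farthest from the median of Arntl, r was −0.78 for Per3, −0.78 for Cry2, 0.80 for Clock and −0.55 for Nr1d2.

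Per3 and Arntl were opposed within each treatment, at r = −0.92 over the 7 no pump hearts, −0.79 over the 10 saline hearts and −0.76 over the 8 Ang/PE hearts. Nr1d1 and Arntl were opposed without a pump (r = −0.95) but not in saline hearts (r = 0.35), and r was −0.24 under Ang/PE. The atrial and fat markers varied most in the saline hearts, and their part in this was not tested. Of the 21 pairs of an activator and a repressor, 18 had a negative r, with a median of −0.44. Of the 18 such pairs without Cry1, 17 were negative, with a median of −0.51. All 3 pairs of activators were positive (median 0.66), and 15 of 21 pairs of repressors were positive (median 0.22). Cry1 and Per3, both repressors, had r = −0.60.

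**Figure D4:**
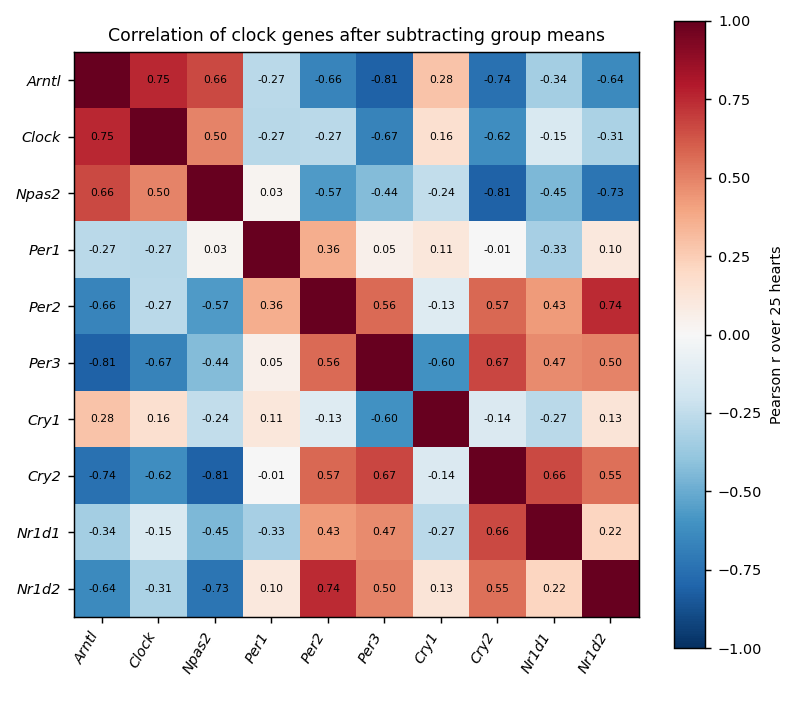
Pearson's r between each pair of the 10 clock genes over 25 hearts, in deviations of log2 CPM from the group means, on a colour scale from −1 to 1. The activator block and the Per3, Cry2 and Nr1d2 block are each positive inside, from 0.50 to 0.75 among the activators, and negative against each other, down to −0.81 between Arntl and Per3.

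The spread within groups differed widely among the members. The within-group SD of log2 CPM was 0.49 for Per2, 0.48 for Arntl and 0.41 for Per3, which is above 94.1%, 93.6% and 89.6% of the 12963 genes with a mean log2 CPM above 1, whose median SD was 0.20. Npas2 had 0.36 and Per1 0.30. Clock had an SD of 0.13, below most of those genes (17.9% were lower), and Nr1d2 one of 0.19, close to the median. Over all 25 hearts the ratio of the highest to the lowest level was 6.58 for Arntl, 5.21 for Per2 and 4.90 for Per3, but 1.61 for Clock and 1.995 for Cry1.

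Levels between genes were compared per length, as CPM per kilobase of exon, averaged over the 25 hearts. Nr1d1 came first at 42.5, then Nr1d2 at 26.1 and Per1 at 20.2. Cry2 at 6.41, Clock at 6.23, Per3 at 5.62 and Per2 at 4.57 formed a middle range. Cry1 at 2.66, Arntl at 1.93 and Npas2 at 1.62 were lowest, and the lowest counts in any library were 67 for Npas2 and 89 for Arntl. Within each of these 3 ranges the levels of neighbouring genes overlapped over the hearts. The ranges describe the average and were not separate in every group. In MCT1KO Ang/PE hearts the means were 3.79 for Arntl, 3.03 for Cry1 and 2.61 for Npas2, beside 2.84 for Per2 and 2.49 for Per3.

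A list of 20 further genes that feed into or out of the loop was tested in the same model, and all 20 passed the low-count filter. The list was chosen with earlier results of these data known. Between Ang/PE and saline in MCT1KO hearts 6 of the 20 passed, 2 higher and 4 lower, where 4.46% of all genes passed. The 3 PAR bZIP factors, which bind D-boxes and are driven by the activators through E-boxes, all fell. The log2 difference was −2.19 (SE 0.34, adjusted p = 0.00498) for Dbp, −1.28 (SE 0.26, adjusted p = 0.0139) for Hlf and −0.74 (SE 0.16, adjusted p = 0.0140) for Tef. Ciart, a repressor of the activator pair, fell as well, at −2.05 (SE 0.54, adjusted p = 0.0353). Nfil3, which competes with the PAR bZIP factors for D-boxes, rose by 1.91 (SE 0.53, adjusted p = 0.0423), and Fbxw11, a ubiquitin ligase subunit that targets PER proteins, rose by 0.31 (SE 0.07, adjusted p = 0.0181). These are edgeR quasi-likelihood tests with Benjamini-Hochberg adjustment over all genes. The median of the list was −0.01, as over all genes.

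Dbp was at 37.6, 25.2, 27.1, 11.6 and 27.9 CPM in MCT1KO Ang/PE hearts, 153, 127, 79.7 and 110.4 CPM in MCT1KO saline hearts and 61.1, 154 and 136 CPM in MCT1KO no pump hearts. In WT hearts it was at 88.3, 53.7 and 37.2 CPM under Ang/PE and 48.1, 55.3, 98.4 and 94.0 CPM with no pump. Every MCT1KO Ang/PE heart lay below every MCT1KO heart of the other treatments. Nfil3 was at 51.9, 13.6, 15.7, 12.6 and 11.6 CPM in MCT1KO and 9.36, 8.46 and 60.3 CPM in WT Ang/PE hearts, so that 1 heart of each genotype stood far above the rest. Without MCT1KO Ang/PE 1, 3 of the 20 genes passed against saline, all lower (475 of all 17670 genes). Without MCT1KO saline 4, the heart with the most atrial and fat RNA, 2 passed, both lower (39 of 17547). With both marker scores as covariates 0 passed, as did 0 of all 17682 genes. Against no pump hearts in MCT1KO, 3 passed by the same test, all lower, where 0.503% of all genes passed: Dbp at −2.18 (SE 0.35, adjusted p = 0.00646), Tef at −0.85 (SE 0.17, adjusted p = 0.0210) and Hlf at −1.22 (SE 0.28, adjusted p = 0.0470). Without MCT1KO no pump 2, 0 passed against no pump (1 of all 18101 genes). Leaving out MCT1KO no pump 3 or MCT1KO Ang/PE 2 or 5, 1 passed (54 of 18096, 31 of 17640 and 33 of 17648). Nfil3 was at 1.65 (SE 0.57, adjusted p = 0.194) there.

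The other 14 genes did not pass in any comparison. Rora, a ROR activator of Arntl, differed by −0.03 (SE 0.08) between Ang/PE and saline in MCT1KO hearts, and Csnk1d, a kinase of PER proteins, by 0.14 (SE 0.08). Usp2, a clock-driven deubiquitinase, stood at −0.51 (SE 0.20) and Bhlhe41, a repressor that binds E-boxes, at −0.42 (SE 0.22). In every other comparison 0 of the 20 passed by edgeR. Between genotypes, an unadjusted p below 0.05 was reached by 5 of the 20 with no pump (12.2% of all genes), 1 with saline (17%) and 5 with Ang/PE (6.92%). In WT hearts it was reached by 6 between Ang/PE and saline (19.1% of all genes), 3 between Ang/PE and no pump (9.02%) and 5 between saline and no pump (24.3%). It was reached by 2 between saline and no pump in MCT1KO hearts (12.1%), and by 4 in the interaction with Ang/PE against saline (13.5%) and 4 in that with saline against no pump (17.2%). Several of these counts lie near the share of all genes. DESeq2 called 3 of the 20 between saline and no pump in WT hearts, all higher, beside 1960 of all 17682 genes. It called 0 of the 20 in these other comparisons.

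**Figure D5:**
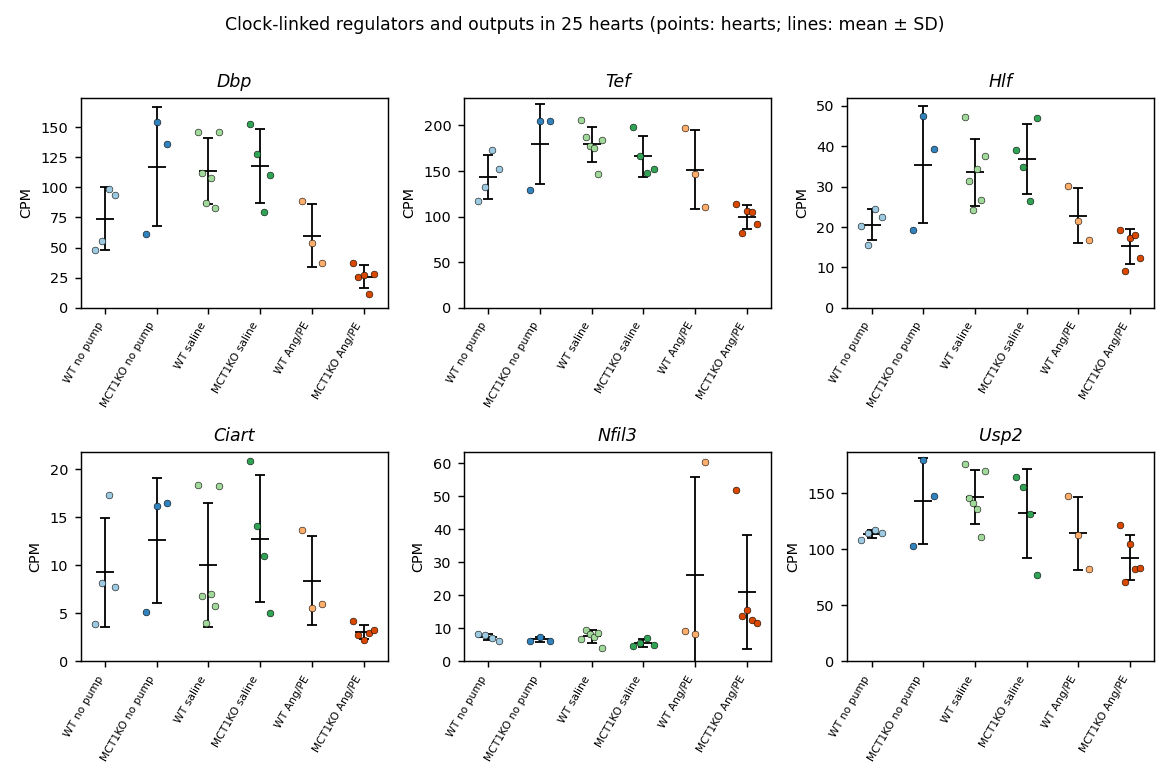
Level of 5 of the 6 clock pathway genes that passed between Ang/PE and saline in MCT1KO hearts (Dbp, Tef, Hlf, Ciart and Nfil3), and of Usp2 (CPM, linear axes from 0), with 1 point per heart by group and lines for the group mean ± SD. Dbp, Tef, Hlf and Ciart are lowest in the MCT1KO Ang/PE hearts, and Nfil3 has 1 high heart in each Ang/PE group.

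The genes most like Arntl were sought among 11683 other genes with a mean log2 CPM above 1, by Pearson's r over 25 hearts in deviations from the group means. The 5 most opposed to it were Tef (r = −0.86), Ciart (−0.84), Dbp (−0.84), Usp2 (−0.80) and Rnf31 (−0.77). The first 4 are on the list of 20 pathway genes, which was chosen with earlier results of these data known. Their place in this ranking is thus a description. Rnf31 encodes a ubiquitin ligase subunit. The 5 most alike were Phc2 (0.75), Krcc1 (0.71), Vopp1 (0.69), Gng11 (0.69) and Akirin1 (0.69). For comparison, r exceeded 0.6 in size for 0.522% of the genes and 0.75 for 0.0685%. Among the members, Clock, at 0.75, and Per3, at −0.81, each exceeded 0.75 in size. Bhlhe41 had r = −0.73, Hlf r = −0.71 and Nfil3 r = 0.24 with Arntl.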

How the data were processed

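The file that the authors deposited holds raw counts, 1 row per gene and 1 column for each of 25 hearts. Per the labels' protocols, ribosomal RNA was depleted and the libraries were stranded. The submitters' processing notes name cutadapt 1.16, STAR 2.7.9a, featureCounts 1.6.3, DESeq2 1.42.1 and the build GRCm39 (mm39). The strand setting of the counting is not given in the sources used here.

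Counts were analysed with edgeR 4.0.16 in R 4.3.3: filterByExpr by group left 17682 of 56941 genes, TMM factors scaled the libraries, and 1 robust quasi-likelihood model of the 6 groups (19 residual degrees of freedom, common biological coefficient of variation 0.196) gave log2 differences, standard errors and 95% intervals. P-values were two-sided and adjusted by Benjamini-Hochberg over all genes in each comparison, and a call is an adjusted p below 0.05. They measure the spread between hearts only. CPM used TMM-scaled totals (12216704 to 24880683 before scaling), and log2 CPM a prior count of 2. Exon lengths and overlaps came from GENCODE M21 (GRCm38) and promoter windows from RefSeq (GRCm38.p6), so gene coordinates of the files' build are not printed.

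The members, the 20 pathway genes and the markers were chosen with earlier results of these data known. The text names all 10 members, the pathway genes that pass in any comparison and up to 4 others, Slc16a1, and the 5 genes most like and the 5 most opposed to Arntl, predicted genes left out. The overlap with Thra and the glucocorticoid genes beside Per1 were added. The model script was checked on simulated counts. Alternatives were RLE scaling, DESeq2 1.42.0, no low-count filter, a replicate block, a fit of the compared groups alone, a fit without robust estimation, mitochondrial genes removed, Xist as a covariate and each heart left out. Counts thinned to the smallest library and the atrial and fat marker scores as covariates were chosen after seeing the data.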

Additional observations from a re-analysis of the deposited data

Results flagged for a closer look

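In groups of 4 to 6 hearts, the highest and the lowest log2 CPM of each member and the highest and lowest index were compared with the other hearts of the group by Dixon's test, 44 tests in all. It marked 2 values, where chance alone marks about 1 in 20 groups. Npas2 in MCT1KO Ang/PE 1 stood at 2.93 log2 CPM, below the 3.64 to 3.93 of the other 4 hearts of its group. That heart also had the lowest Arntl, at 21.1 CPM, the highest Per2, at 25.9 CPM, and the lowest index of its group, and its library was the smallest of the 25, at 12216704 counts. Nr1d1 in MCT1KO saline 4 stood at 7.53 log2 CPM, above the 7.13 to 7.19 of the other 3 hearts. That heart had the highest atrial and fat markers of the series, whose part in this value was not tested. Over the 10 members and 20 pathway genes, both interactions gave 60 tests, and 0 passed by edgeR.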

How the results depend on the processing

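The 20 called differences (a member or pathway gene in a comparison) kept their direction in 373 of 373 alternative values. Differences that were not called could change sign: with the marker scores as covariates, Cry1 between Ang/PE and saline in MCT1KO hearts went from 0.26 to −0.10, and Per2 in WT hearts from 0.11 to −0.32. Counts of calls depended more on the setting. Between Ang/PE and saline in MCT1KO hearts, the 7 members called became 4 with the replicate block, 1 with only the groups compared, 0 with the marker scores as covariates, 8 with DESeq2 or the non-robust fit and 3 to 7 with a heart left out. The 6 pathway genes became 3 without the low-count filter, 0 with only the groups compared, 0 with the marker scores and 2 to 6 with a heart left out. Between Ang/PE and no pump in MCT1KO hearts, the 4 members became 2 with the replicate block, 2 with Xist, 2 with only the groups compared, 6 with DESeq2 and 0 to 6 with a heart left out. The 3 pathway genes became 1, 1, 0, 4 and 0 to 3 in the same order. DESeq2 called 1 member between genotypes under Ang/PE, beside 5 of all 17682 genes. The 0 pathway genes between saline and no pump in WT hearts became 1 with Xist, 4 with only the groups compared and 3 with DESeq2, and the 0 between Ang/PE and saline in WT hearts became 0 to 1 with a heart left out. Over all genes, calls between Ang/PE and saline in MCT1KO hearts numbered 0 to 1224 over the settings and 39 to 1541 with a heart left out. Those between Ang/PE and no pump in MCT1KO hearts numbered 11 to 385 and 1 to 123. Between saline and no pump in WT hearts they were 549 with Xist, 2287 with only the groups compared and 1960 with DESeq2. Between Ang/PE and saline in WT hearts they were 0 to 945 over the settings and 1 to 131 with a heart left out. The 945 (of 16621 genes) came from fits of only the groups compared, which called 1 of 15817 in MCT1KO hearts. Without Cry1 the mean index was lower in every group: −1.62, −2.30 and −1.60 in WT and −2.35, −2.35 and −0.49 in MCT1KO hearts with no pump, saline and Ang/PE. Taken over levels, r with Arntl was −0.50 for Per1 and −0.72 for Nr1d1. In deviations from the group means, r of Nr1d1 with Arntl was −0.66 without the saline hearts, beside −0.34 over all hearts. The lower index without Cry1 follows from its level, which lies below the repressor mean in every group. The cause of the other changes was not tested. Same-numbered hearts shared only a number: over 52 pairs their deviations had a mean r of 0.01, and 9 pairs exceeded 0.1. Groups of 3 to 6 hearts, collected at hours that the labels do not give, limit what these data can show about rhythm.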
